A study of Mus musculus with 6 samples.

Results

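The 43 genes described here encode the subunits of voltage-gated calcium channels, voltage-gated sodium channels and HCN channels, out of 27998 genes measured. They are all the gene symbols of the count table that begin with Cacna, Cacnb or Cacng, that consist of Scn with a number and a final a or b, or that consist of Hcn with a number. Among them are 10 calcium pore subunits, 16 calcium auxiliary subunits, 9 sodium pore subunits, 4 sodium beta subunits and 4 HCN subunits. The choice used names only and no measured value. Scn2a1, the symbol under which the table lists a further sodium pore gene, lies outside this rule and is counted below with 30 listed partner genes.

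Single cells were taken from the preoptic region of the hypothalamus of female mice (3 libraries) and male mice (3 libraries). For each library 3 mice of 60 to 70 days, single-housed for 3 days, were pooled, and the protease-dissociated cells were sorted for live cells and barcoded on the 10x Chromium platform. No strain, genotype or other treatment is given in the sources used here, and a library is 1 pool, so the spread between libraries is a spread between pools.

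Voltage-gated calcium and sodium channels open when the membrane is depolarised. Sodium channels start and carry the action potential, and calcium channels couple depolarisation to transmitter release, to contraction in muscle and to gene expression. HCN channels open on hyperpolarisation, pass a mixed cation current and are known for pacing and for setting the resting potential. Pore subunits form the channel, and the beta and alpha2delta subunits set its delivery to the membrane and its gating. Several gamma subunits (Cacng2, Cacng3, Cacng4, Cacng5, Cacng7 and Cacng8) are known mainly as partners of AMPA-type glutamate receptors.

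The HCN and the alpha2delta families each hold members called in opposite directions in neurons against mature oligodendrocytes below, so a stretch is shown for 3 HCN genes and for the 4 alpha2delta genes. The sequences are 57 bases of coding strand from the GENCODE vM21 mouse transcripts, with coordinates on mm10. In the HCN genes the capitals mark the glycine-tyrosine-glycine codons of the selectivity filter, the part of the pore that chooses which ions pass. The stretch lies within exon 4 of each transcript: chr10:79728935-79728991 on the plus strand for Hcn2, chr3:89150982-89151038 on the minus strand for Hcn3 and chr9:58855567-58855623 on the plus strand for Hcn4.
Hcn2: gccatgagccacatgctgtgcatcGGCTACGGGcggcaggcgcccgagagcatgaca
Hcn3: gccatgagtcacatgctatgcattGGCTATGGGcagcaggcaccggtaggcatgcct
Hcn4: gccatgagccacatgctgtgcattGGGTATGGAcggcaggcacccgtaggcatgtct
The 3 stretches shared between 45 of 57 bases (Hcn2 with Hcn3) and 50 of 57 bases (Hcn3 with Hcn4), and all 3 encode the same 3 residues in capitals.

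In the alpha2delta genes the capitals mark the triplet of codons that encodes 3 arginines in Cacna2d1 and Cacna2d2, known for the binding of gabapentin. Each stretch crosses an exon boundary: exons 8 and 9 of Cacna2d1 (chr5:16264290-16266705, plus strand) and of Cacna2d2 (chr9:107512323-107513072, plus strand), and exons 7 and 8 of Cacna2d3 (chr14:29347013-29347159, minus strand) and of Cacna2d4 (chr6:119267830-119268214, plus strand).
Cacna2d1: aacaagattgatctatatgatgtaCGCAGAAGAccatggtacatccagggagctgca
Cacna2d2: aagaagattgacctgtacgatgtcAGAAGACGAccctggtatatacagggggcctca
Cacna2d3: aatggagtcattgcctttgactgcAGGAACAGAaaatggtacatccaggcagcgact
Cacna2d4: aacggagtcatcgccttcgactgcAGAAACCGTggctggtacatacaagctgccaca
Cacna2d1 and Cacna2d2 shared 43 of 57 bases, and Cacna2d3 and Cacna2d4 also shared 43 of 57 bases. Cacna2d1 and Cacna2d3 shared 31 of 57 bases, and the middle codon of the triplet does not encode arginine in Cacna2d3 or Cacna2d4.

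Of 31299 barcodes, 30824 had at least 500 genes and at most 20% mitochondrial UMIs (unique molecular identifiers, each 1 counted transcript) and were kept. Libraries held 410 to 9749 kept cells with medians of 2684 to 6757 UMIs. Female replicate 3 was the smallest and shallowest, and male replicate 3 was next with 1962 cells and a median of 3628.5 UMIs. Barcode sequences found in more than 1 library numbered 479 of 30815. Classes were set by fixed marker counts that use no channel gene, and held 17843 neurons (13391 GABA neurons, 2233 glutamate neurons and 2219 of neither kind), 6846 mature oligodendrocytes, 1591 oligodendrocyte precursors, 774 microglia, 695 astrocytes, 414 mural cells (pericytes and smooth muscle) and 399 endothelial cells. The tissue label gives the preoptic region. Cells were also scored for 6 markers of striatal projection neurons (among them Ppp1r1b, Adora2a, Drd1, Arpp21 and Rgs9). A cut on their summed UMIs and number detected took in 15.9% of GABA neurons under a narrow setting and 23.7% under a wide setting. It took in 0% and 0.851% of glutamate neurons under the same settings. Both settings were chosen after seeing the data, and the marker sums showed no gap at either. Results among GABA neurons are therefore given with these cells, and without them for most counts of members and for some single genes. Counts of members called without these cells come without the share of all genes called there, as do most counts in other alternatives to the main test. Such counts are not read as a result about the members.

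All 43 genes had at least 1 UMI, and together they had 291586 UMIs. Counts were lowest for Cacna1s with 93 UMIs, Scn10a with 45, Cacng6 with 44, Cacng1 with 24, Cacna1f with 10 and Scn4a with 1, genes best known from muscle, sensory neurons and retina. In each test across genes, members under the count filter were left out, and 5 members entered no test. The filter can pass a gene through either group alone, so a member low in the reference was tested only where the other group was high. The mean level per library was highest in GABA neurons for 19 members, in glutamate neurons for 13, in mural cells for 4, in oligodendrocyte precursors, mature oligodendrocytes and astrocytes for 2 each, and in microglia for 1. The place of Cacna1d, highest in astrocytes, rested on female replicate 3. Levels are UMIs of a gene per 1000000 UMIs of its class in a library (CPM) and are compared between cells, not between genes.

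**Figure D1:**
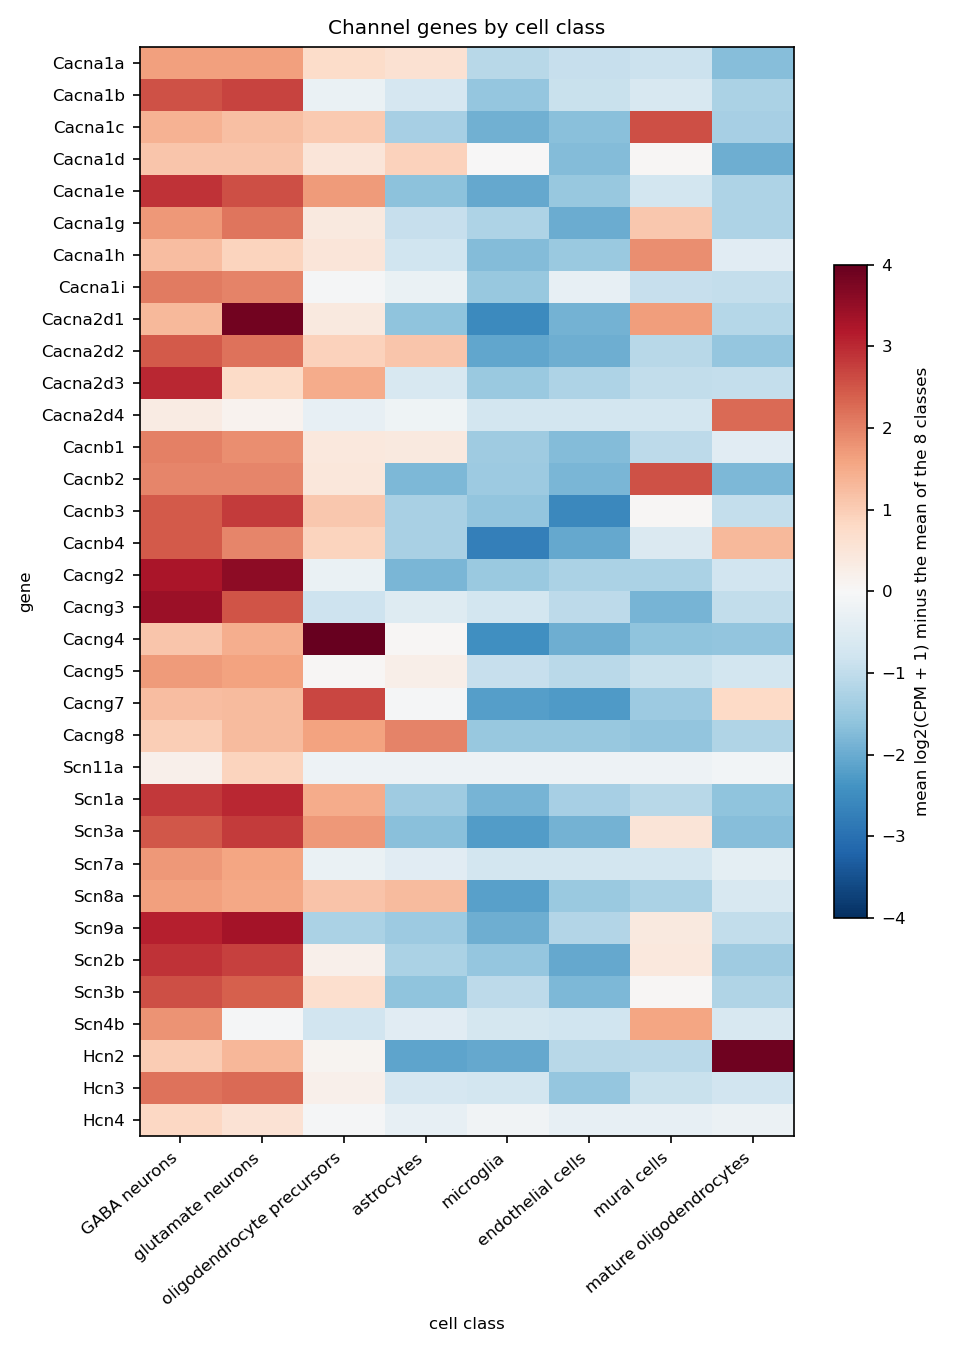
Each row is 1 of 34 channel genes with at least 100 UMIs and each column a cell class. Colour gives the mean over libraries of log2(CPM + 1) minus the gene's mean over the 8 classes, cut at 4 in both directions. Most rows are highest in the 2 neuron columns, and Hcn2, Cacna2d4, Cacng4, Cacng7, Cacnb2 and Cacna1c are among those highest in a non-neuronal column.

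Neurons were set against mature oligodendrocytes to see which channel genes separate excitable cells from the largest glial class. Of 35 members tested, 32 were higher in neurons (42.8% of all genes tested were) and 3 were lower (41.5% of all genes were). The median log2 change of the members was 2.77, beside 0.02 over all genes. Changes are log2 ratios with their SE, the log2 change divided by the square root of its F statistic. The tests were edgeR quasi-likelihood tests with Benjamini-Hochberg adjustment over all genes, with the library as a block, and a call is an adjusted p under 0.05.

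The calcium pore genes followed this pattern. Cacna1e, the R-type pore, ran from 66.5 to 95.8 CPM in neurons with a median of 82.8, against 0 to 9.44 CPM with a median of 5.20 in mature oligodendrocytes. Cacna1b, the N-type pore of presynaptic terminals, averaged 47.8 ± 9.69 CPM in neurons and 2.76 ± 2.00 CPM in mature oligodendrocytes (SD, n = 6 libraries each). Cacna1g, a T-type pore that opens at low voltage, averaged 17.8 ± 4.85 CPM in neurons and 1.37 ± 1.07 CPM in mature oligodendrocytes (SD, n = 6 each). Groups did not overlap for any of the 3 genes.

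Among auxiliary genes, Cacng3, an AMPA receptor partner, ran from 48.1 to 76.4 CPM in neurons with a median of 56.4, against 0 to 3.29 CPM with a median of 2.67 in mature oligodendrocytes. Its log2 change was 3.55 ± 0.13 (SE; adjusted p = 2.56e-10, edgeR quasi-likelihood test with Benjamini-Hochberg adjustment). Cacng2, known as stargazin, had a log2 change of 3.36 ± 0.13, Cacna2d2 of 3.30 ± 0.15 and Cacnb2, a cytosolic beta subunit, of 3.24 ± 0.17. Each of these was higher in neurons in 6 of 6 libraries.

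Sodium channel genes were higher in neurons too. Scn1a, a pore known from inhibitory neurons and from epilepsy, ran from 66.5 to 124 CPM in neurons with a median of 99.5, against 0 to 8.40 CPM with a median of 3.71 in mature oligodendrocytes. Its log2 change was 3.50 ± 0.18 (adjusted p = 3.90e-09, edgeR quasi-likelihood test with Benjamini-Hochberg adjustment). Scn9a, a pore best known from pain-sensing neurons, had a log2 change of 3.23 ± 0.16. Scn2b, one of the beta subunits that tether and tune the pore, had a log2 change of 3.38 ± 0.16. All 3 were higher in neurons in 6 of 6 libraries.

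The 3 members lower in neurons were Hcn2, Cacna2d4 and Cacng7. Hcn2, a fast HCN pore, ran from 12.3 to 29.7 CPM in neurons with a median of 24.4, against 105 to 254 CPM with a median of 166 in mature oligodendrocytes. The groups did not overlap, and the log2 change was −3.40 ± 0.13 (adjusted p = 2.55e-10, edgeR quasi-likelihood test with Benjamini-Hochberg adjustment). The GABA markers Gad1, Gad2 and Slc32a1, which glia should lack, stood in mature oligodendrocytes at 0.370% to 9.56% of their neuronal level by library, with a median of 4.91%. The oligodendrocyte level of Hcn2, pooled over libraries, was 634% of its neuronal level.

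Cacna2d4, an alpha2delta subunit known from the retina, ran from 0 to 1.67 CPM in neurons with a median of 1.39, against 4.24 to 10.2 CPM with a median of 6.73 in mature oligodendrocytes. There was no overlap, and the log2 change was −3.34 ± 0.21 (adjusted p = 1.70e-08, edgeR quasi-likelihood test with Benjamini-Hochberg adjustment) on 196 UMIs in neurons and 339 in mature oligodendrocytes. Cacna2d4 had 3 UMIs in oligodendrocyte precursors, 1 in astrocytes and none in microglia, endothelial or mural cells.

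Cacng7 depended on the scaling. Its log2 change was −0.36 ± 0.10 under the TMM scaling used throughout (adjusted p = 0.00469, edgeR quasi-likelihood test with Benjamini-Hochberg adjustment). It was 0.39 with total counts as the scaling (adjusted p = 0.00340, same edgeR test), an alternative chosen after seeing the data, and its CPM was higher in neurons in 6 of 6 libraries. The call was also lost with DESeq2 size factors, in the DESeq2 Wald test and under stricter gates. Total counts moved the median log2 change of all genes to 0.78 in neurons and to 0.63 in oligodendrocyte precursors, both against mature oligodendrocytes. Under total counts 8773 genes were higher and 2830 lower in neurons, beside 5594 higher and 5422 lower under TMM.

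**Figure D2:**
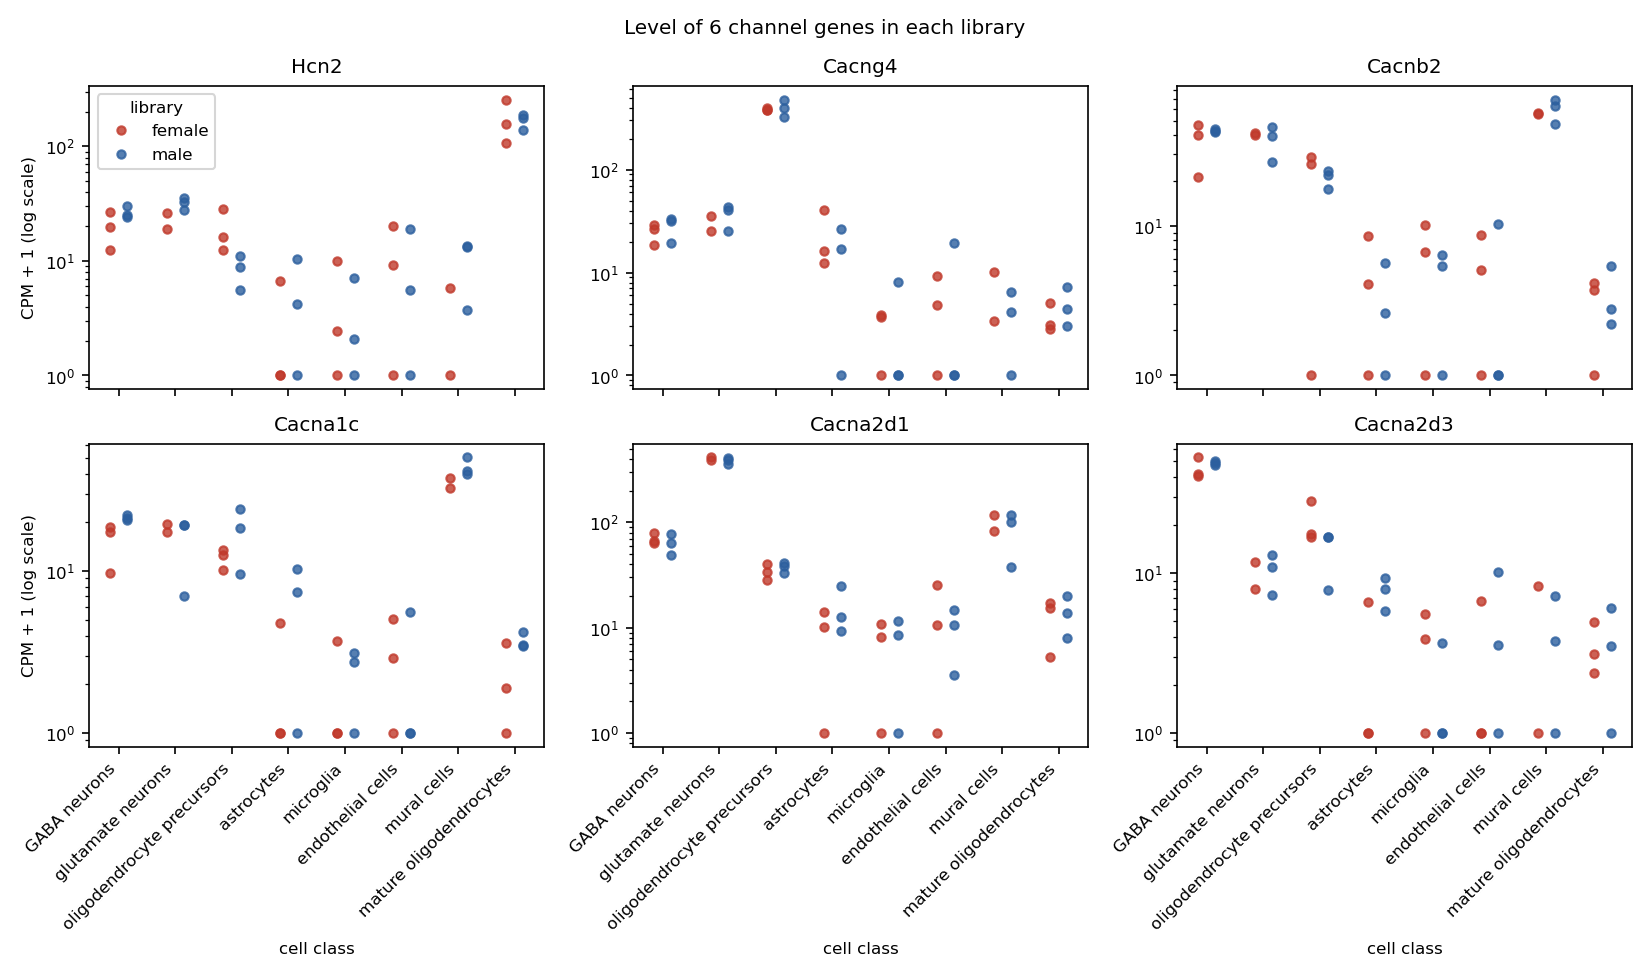
CPM + 1 on a log scale for 6 channel genes, with cell classes along the horizontal axis and 1 point per library (red female, blue male). Hcn2 lies at 105 CPM or more in all 6 libraries of mature oligodendrocytes, Cacng4 at 320 CPM or more in all 6 of oligodendrocyte precursors, and Cacna2d1 at 354 CPM or more in all 5 of glutamate neurons.

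Oligodendrocyte precursors, the dividing glia that receive synaptic input from neurons, had higher levels of most channel genes tested than the cells they mature into. Of 19 members tested against mature oligodendrocytes, 17 were higher in precursors (35.9% of all genes were) and 2 were lower (36.1% of all genes were). Members low in mature oligodendrocytes, such as Cacng4 and Cacng8, could pass the filter only through precursors. The count of higher members therefore depends in part on the filter, and members below it were not tested. The members' median log2 change was 1.74, beside −0.01 over all genes.

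Cacng4, an AMPA receptor partner, stood apart, with a lowest, median and highest level of 320, 387 and 476 CPM in precursors, against 1.82, 2.76 and 6.21 CPM in mature oligodendrocytes. Its log2 change was 6.11 ± 0.13 (adjusted p = 7.01e-18, edgeR quasi-likelihood test with Benjamini-Hochberg adjustment), and in neurons it ran from 20.1 to 35.2 CPM. Cacng8, of the same family, ran from 5.56 to 15.9 CPM in precursors with a median of 11.3, against 0 to 1.21 CPM with a median of 0.861 in mature oligodendrocytes (log2 change 3.06 ± 0.39). GABA markers in precursors reached 5.31% to 14.5% of their neuronal level by library, with a median of 9.18%, and the 10 neuronal gate markers had a median of 17.7%. Pooled over libraries, Cacng4 in precursors stood at 1299% of its neuronal level, Cacng7 at 268% and Cacng8 at 137%.

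Pore genes were higher in precursors as well. Scn3a, a sodium pore of developing neurons, ran from 36.6 to 77.9 CPM in precursors with a median of 66.5, against 0 to 10.7 CPM with a median of 6.12 in mature oligodendrocytes. The log2 change was 2.49 ± 0.16 for Scn3a, 2.31 ± 0.20 for Scn1a, 2.30 ± 0.21 for Cacna1a (the P/Q-type pore of presynaptic terminals), 1.88 ± 0.19 for Cacna1e, 1.83 ± 0.18 for the beta subunit Scn3b and 1.82 ± 0.28 for Cacna1c (the L-type pore of heart and neurons). Scn3a, Scn1a, Cacna1e and Cacna1c were higher in precursors in 6 of 6 libraries, and Cacna1a and Scn3b in 5 of 6, the exception being female replicate 3, where both had no UMI in precursors. Pooled over libraries, the precursor level was 77.4% of the neuronal level for Cacna1a, 71.1% for Cacna1c and 58.4% for Scn3a. The part of free neuronal RNA in the smaller of these levels was not tested.

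Hcn2 and Cacnb4 were lower in precursors. Hcn2 ran from 4.61 to 27.4 CPM in precursors with a median of 10.7, against the 105 to 254 CPM of mature oligodendrocytes, a log2 change of −4.40 ± 0.15 (adjusted p = 1.73e-15, edgeR quasi-likelihood test with Benjamini-Hochberg adjustment). Cacnb4, a beta subunit, ran from 32.9 to 56.6 CPM in precursors with a median of 38.0, against 31.8 to 66.2 CPM with a median of 58.1 in mature oligodendrocytes. Its groups overlapped, with a log2 change of −1.11 ± 0.10 that was −0.48 with total counts as the scaling. At 55.1 ± 12.5 CPM (SD, n = 6), Cacnb4 in mature oligodendrocytes was at 52.3% of its neuronal level when pooled.

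Mural cells, which line vessels and include contractile smooth muscle, had higher levels of the L-type pore gene Cacna1c and the beta subunit gene Cacnb2. Of 15 members tested against mature oligodendrocytes in 5 libraries (2 female, 3 male), 7 were higher in mural cells (26.8% of all genes were) and 3 were lower (29.6%). Members low in mature oligodendrocytes, such as Cacna1c and Cacnb2, could pass the filter only through mural cells. The count of higher members therefore depends in part on the filter. Cacna1c, the L-type pore of smooth muscle, was at 36.3 and 31.5 CPM in female and 40.3, 38.7 and 49.3 CPM in male libraries of mural cells, against 0 to 3.18 CPM in mature oligodendrocytes. Its log2 change was 3.80 ± 0.35 (adjusted p = 9.39e-13, edgeR quasi-likelihood test with Benjamini-Hochberg adjustment), on 52 UMIs in mural cells. Its groups did not overlap, and the pooled mural level was 198% of the neuronal one, beside 7.60% for GABA markers.

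Cacnb2, the beta subunit that partners the L-type pore in heart, was at 54.4 and 55.7 CPM in female and 68.2, 47.0 and 61.7 CPM in male libraries of mural cells, against 0 to 4.36 CPM in mature oligodendrocytes (log2 change 4.21 ± 0.31). Cacna2d1 was at 81.6 and 116 CPM in female and 99.2, 116 and 37.0 CPM in male libraries of mural cells, against 4.24 to 18.9 CPM in mature oligodendrocytes (log2 change 2.61 ± 0.20). Neither gene's groups overlapped. The T-type pore Cacna1h had a log2 change of 2.22 ± 0.42, and at 31.7 and 31.5 CPM its 2 female libraries were above its 3 male libraries at 12.4, 8.30 and 12.3 CPM. The mural change was 1.62 ± 0.31 for Scn2b and 1.58 ± 0.36 for Scn3a, higher in mural cells in 5 of 5 libraries for Scn2b and 4 of 5 for Scn3a.

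Pooled mural levels were 20.5% of the neuronal level for Scn2b and 22.3% for Scn3a, so both lay nearer to the 7.60% of GABA markers than Cacna1c did. Whether free neuronal RNA contributed was not tested. Hcn2 (log2 change −4.87 ± 0.29), Cacng7 (−2.14 ± 0.60) and Cacnb4 (−1.93 ± 0.26) were lower in mural cells, and under stricter gates the change was −1.11 for Cacng7 and −1.24 for Cacnb4.

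Few members passed the count filter in the smaller glial classes. Among astrocytes 0 of 2 members tested were higher than in mature oligodendrocytes (33.4% of all genes were) and 2 were lower (33.6%), Hcn2 by a log2 change of −5.27 ± 0.26 and Cacnb4 by −2.40 ± 0.24. In endothelial cells the same 2 members were tested, 0 were higher (32.6% of all genes were) and 2 were lower (35.5%), Hcn2 by −3.73 ± 0.23 and Cacnb4 by −2.73 ± 0.30. In microglia 1 of 4 members was higher (36.1% of all genes) and 2 were lower (37.2%), again Hcn2 (−4.55 ± 0.27) and Cacnb4 (−2.61 ± 0.25). With no filter on low counts 11 members were called in astrocytes, 6 in endothelial cells and 12 in microglia. The share of all genes called without the filter is not given here, so these counts are not read as a result about the members.

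Cacna1s, the L-type pore of skeletal muscle, had 32 of its 93 UMIs in microglia, where it reached 7.13, 10.9 and 0 CPM in female and 8.80, 5.33 and 0 CPM in male libraries, against 0.227, 0.0866 and 0 CPM in female and 0 CPM in male libraries of mature oligodendrocytes. It was below the filter and not tested. Cacng8 in astrocytes, also not tested, had 32 UMIs and a pooled level 196% of the neuronal one.

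Partner genes in the same comparisons, a list of 31 symbols of which 30 were in the table, included binding proteins, anchors and regulators of these channels. Of 28 tested in neurons against mature oligodendrocytes, 23 were higher in neurons (42.8% of all genes were) and 5 lower (41.5%), with Scn2a1 at a log2 change of 3.54, the sodium channel regulators Fgf14 at 3.45 and Fgf13 at 3.29, and Pex5l at −4.61. Pex5l encodes TRIP8b, which binds HCN subunits and sets their delivery to the membrane. In oligodendrocyte precursors 12 of 21 were higher (35.9% of all genes were) and 8 lower (36.1%), with Fam155a and Unc79, subunits of the sodium leak channel complex, at 3.29 and 2.34, and Pex5l at −5.26 and Nfasc, an adhesion molecule of the node, at −2.53. In mural cells 7 of 17 were higher (26.8% of all genes were) and 5 lower (29.6%), led by Rem1 (6.69), Rrad (5.74) and Gem (5.41), small GTPases that restrain calcium channels, and the calcium-binding protein Cabp1 (5.30).

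Between GABA and glutamate neurons the widest changes were those of 2 alpha2delta genes in opposite directions. Of 35 members tested in 5 libraries (2 female, 3 male), 11 were higher in GABA neurons (15.2% of all genes were) and 8 were lower (15%), the DESeq2 Wald test called 8 and 7, and stricter gates left 7 and 3. The members' median log2 change was 0.05, beside −0.001 over all genes. For 16 of these 19 the change was under 1 on the log2 scale.

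Cacna2d1, known for its role in calcium channel delivery and in synapse formation, was at 65.3, 63.1 and 78.1 CPM in female and 75.6, 63.0 and 47.4 CPM in male libraries of GABA neurons. In glutamate neurons it was at 412 and 387 CPM in female and 391, 402 and 354 CPM in male libraries. No library overlapped between them, and the log2 change was −2.59 ± 0.05 (adjusted p = 3.27e-21, edgeR quasi-likelihood test with Benjamini-Hochberg adjustment). Without the cells with striatal markers the change was −2.92 ± 0.05 (narrow) and −3.08 ± 0.05 (wide).

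Cacna2d3, of the same family, went the other way. It was at 39.6, 40.6 and 52.1 CPM in female and 48.2, 49.2 and 46.9 CPM in male libraries of GABA neurons, against 6.95 and 10.8 CPM in female and 6.29, 9.93 and 12.1 CPM in male libraries of glutamate neurons. The groups did not overlap, and the log2 change was 2.26 ± 0.11 (adjusted p = 1.71e-13, edgeR quasi-likelihood test with Benjamini-Hochberg adjustment). Without the cells with striatal markers it was 1.80 ± 0.11 (narrow) and 1.64 ± 0.11 (wide). Cacna2d2 was also higher in GABA neurons, by 0.44 ± 0.05 in all of them and by 0.64 ± 0.04 under the wide setting. Cacna2d1 and Cacna2d2, which share the arginine triplet shown above, had changes of opposite sign.

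Scn4b, the beta subunit known from striatal and cerebellar neurons for resurgent sodium current, was at 6.10, 4.71 and 2.89 CPM in female and 14.0, 8.37 and 10.1 CPM in male libraries of GABA neurons. In glutamate neurons it was at 1.21 and 1.19 CPM in female and 3.67, 1.20 and 0 CPM in male libraries. The ranges overlapped through female replicate 3, which was not in the test, and male replicate 1, and Scn4b was higher in GABA neurons in 5 of 5 libraries. The log2 change was 2.21 ± 0.21 (adjusted p = 1.72e-08, edgeR quasi-likelihood test with Benjamini-Hochberg adjustment). Without the cells with striatal markers the difference could not be tested: of 847 UMIs in GABA neurons 124 remained under the narrow setting, with a lowest, median and highest level of 0, 1.06 and 2.38 CPM. Under the wide setting 68 UMIs remained, with levels of 0, 0.723 and 0.993 CPM, and Scn4b was below the filter in both.

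Of the smaller changes below, those of Cacng3 and Cacna1e are also given here without the cells with striatal markers. The values of the others include those cells. Higher in GABA neurons were Cacng3 (0.80 ± 0.06), Cacnb4 (0.52 ± 0.05), Cacna1e (0.39 ± 0.05), the nodal sodium pore Scn8a (0.31 ± 0.07), Scn3b (0.14 ± 0.05) and Scn2b (0.12 ± 0.04). The change of Cacng3 was 0.37 ± 0.06 under the narrow setting and 0.17 ± 0.07 under the wide one, and that of Cacna1e 0.17 ± 0.05 and 0.07 ± 0.05. The wide setting ended the call for both (adjusted p = 0.0717 for Cacng3 and 0.440 for Cacna1e, edgeR quasi-likelihood test with Benjamini-Hochberg adjustment). Counts of members called were 9 higher and 5 lower (narrow) and 8 higher and 5 lower (wide).

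Lower in GABA neurons beside Cacna2d1 were Cacna1g (−0.44 ± 0.09), the beta subunit Cacnb3 (−0.33 ± 0.05), Cacng4 (−0.26 ± 0.08), Scn3a (−0.26 ± 0.04), Scn9a (−0.19 ± 0.05) and Cacng2 (−0.15 ± 0.05). Cacnb3 averaged 48.4 ± 6.43 CPM in GABA neurons (SD, n = 6) and 61.1 ± 8.64 CPM in glutamate neurons (SD, n = 5), with overlapping groups. Among HCN genes the log2 change was −0.12 ± 0.08 for Hcn2, −0.17 ± 0.11 for Hcn3 and 0.35 ± 0.31 for Hcn4, the slow pacemaker pore, and none of these passed the test. Of 28 partner genes tested, 8 were higher in GABA neurons (15.2% of all genes were) and 4 lower (15%), with Rem2 at 1.72, Fgf11 at 0.96, Cachd1, an alpha2delta-like protein, at −0.62 and Fam155a at −0.43.

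**Figure D3:**
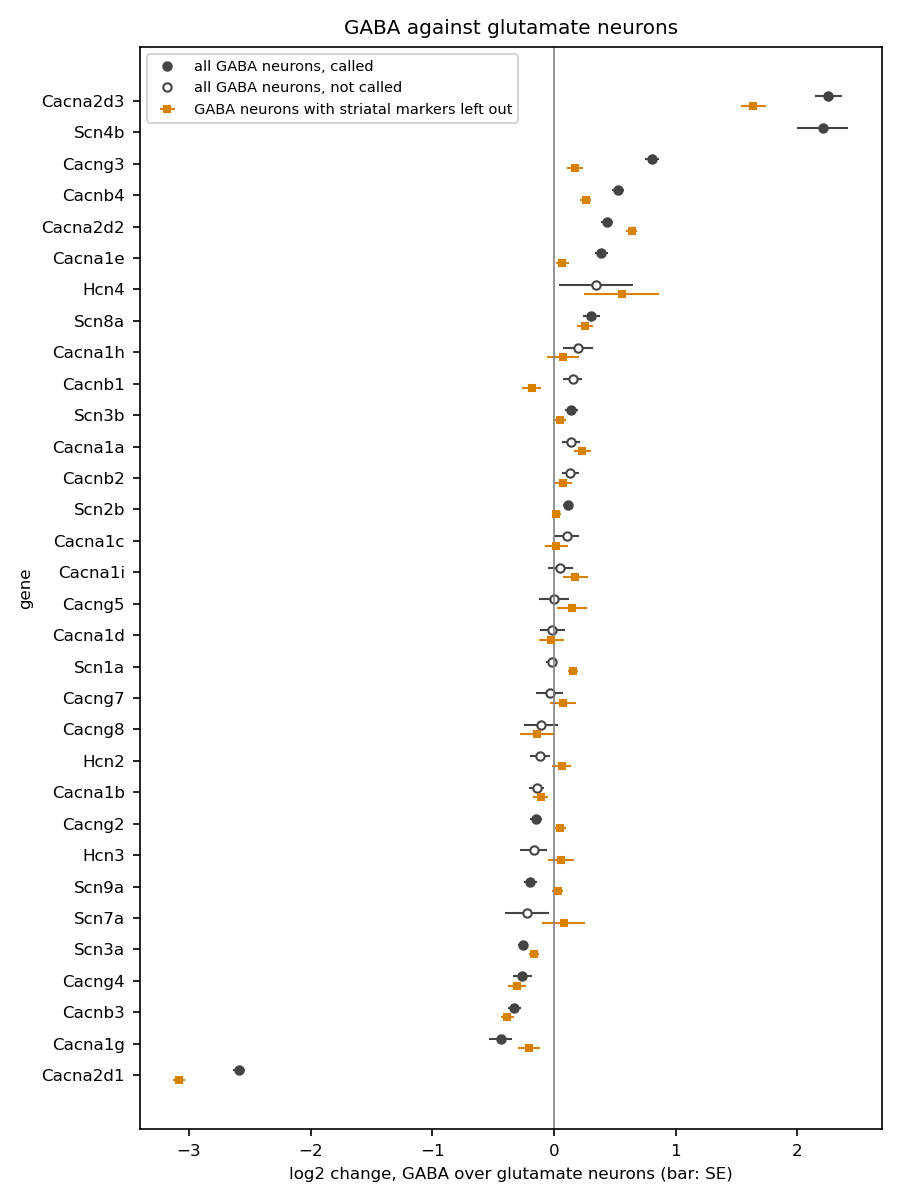
Log2 change of tested channel genes in GABA over glutamate neurons, with bars for the SE. Circles are all GABA neurons (filled where the adjusted p is under 0.05) and squares leave out cells with striatal markers under the wide setting. Cacna2d3 and Cacna2d1 lie at the 2 ends with either set of cells, and Scn4b has no square because it was below the filter.

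Within each transmitter class, 15 neuron types were set by at least 3 UMIs of a peptide or enzyme gene (and at least 2 UMIs of a receptor gene for 2 of them), and each was set against the other neurons of its class. Types can share cells, such as 176 cells in both Sst and Npy neurons and 118 in both Gal and Th neurons. Calls of the same gene in such types are therefore not separate results. Most types were more deeply sequenced than the others, such as Gal neurons with a median of 10714.5 UMIs, against 7210 in the other GABA neurons. Tests used the 5 libraries with enough cells (2 female, 3 male), or 4 libraries for Vip, Adcyap1 and Cck neurons and 3 for cholinergic neurons, while the ranges given for the other GABA neurons cover all 6 libraries. Mature oligodendrocytes met the same cuts at 0% (cholinergic) to 0.628% (Avp), beside 4.79% of GABA neurons for Avp.

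The 2 types set by striatal receptors had the most members called, and also the largest shares of all genes called in each direction. Penk Adora2a neurons (519 cells) had 12 of 33 members higher (24.4% of all genes were) and 15 lower (25.5%), and Tac1 Drd1 neurons (353 cells) had 11 of 33 higher (19.5%) and 11 lower (20.4%). The narrow striatal setting, which counts Adora2a and Drd1 among its markers, took in 94.2% of Penk Adora2a and 85.3% of Tac1 Drd1 neurons.

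Scn4b was at 37.7 and 26.7 CPM in female and 62.4, 56.2 and 53.3 CPM in male libraries of Penk Adora2a neurons, against 3.03 to 11.4 CPM with a median of 5.25 in the other GABA neurons. The ranges were apart, and the log2 change was 2.92 ± 0.17 (adjusted p = 7.11e-29, edgeR quasi-likelihood test with Benjamini-Hochberg adjustment). In Tac1 Drd1 neurons it was at 17.6 and 37.3 CPM in female and 107, 42.5 and 70.7 CPM in male libraries, against 2.97 to 10.6 CPM in the other GABA neurons (log2 change 2.96 ± 0.20). Cacna2d3 (1.54 ± 0.09 and 1.58 ± 0.10 in Penk Adora2a and in Tac1 Drd1 neurons), Cacng3 (1.36 ± 0.08 and 1.28 ± 0.09) and Cacna2d1 (1.09 ± 0.08 and 1.5 ± 0.08) were also higher in both. Cacnb1 (1.09 ± 0.12) and Cacna1e (1.04 ± 0.07) passed 1 on the log2 scale in Penk Adora2a neurons.

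Lower in both were Cacna1g (−2.02 ± 0.28 in Penk Adora2a and −1.55 ± 0.29 in Tac1 Drd1 neurons), Hcn3 (−1.84 ± 0.30 and −1.63 ± 0.33) and Cacng5 (−1.03 ± 0.31 and −1.67 ± 0.41). Hcn3 had 18 UMIs in Penk Adora2a neurons, at 0 and 5.05 CPM in female and 5.06, 5.02 and 0 CPM in male libraries, against 13.9 to 18.2 CPM in the other GABA neurons. In Tac1 Drd1 neurons Cacna2d2 was at 25.5 and 23.4 CPM in female and 21.4, 20.5 and 40.4 CPM in male libraries, against 56.5 to 95.1 CPM in the other GABA neurons (−1.95 ± 0.14). Scn9a (−1.81 ± 0.15) and Cacng2 (−1.13 ± 0.16) were lower in the same neurons. Under stricter gates only 8 members were called in Penk Adora2a neurons, and the calls of Cacng3, Cacnb1, Cacna1g, Hcn3 and Cacng5 were lost.

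Avp neurons (642 cells), which make the antidiuretic hormone vasopressin, had 6 of 34 members higher (10.2% of all genes were) and 15 lower (13.5%). Of these cells 397 came from female replicate 2, and 46 and 18 from male replicates 2 and 3. Cacna2d4 was at 10.8 and 4.82 CPM in female and 16.5, 11.3 and 18.1 CPM in male libraries of Avp neurons, against 0 to 1.18 CPM with a median of 1.07 in the other GABA neurons. The groups did not overlap, and the log2 change was 3.15 ± 0.42 (adjusted p = 2.05e-05, edgeR quasi-likelihood test with Benjamini-Hochberg adjustment) on 46 UMIs. Of the 160 Cacna2d4 UMIs of all GABA neurons, those 46 came from Avp neurons. Cacna2d4 was low in the other GABA neurons, so it could pass the filter here only through Avp neurons.

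Scn9a was higher in Avp neurons as well. Scn9a was at 154 and 116 CPM in female and 143, 195 and 109 CPM in male libraries, against 59.8 to 88.5 CPM in the other GABA neurons (1.00 ± 0.14). These groups did not overlap.

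Lower in Avp neurons were Cacna1h (−1.73 ± 0.36, 18 UMIs), Cacng3 (−1.55 ± 0.23), Scn1a (−1.12 ± 0.21) and Cacnb3 (−1.00 ± 0.17). Scn1a was at 47.4 and 72.7 CPM in female and 36.6, 11.3 and 9.06 CPM in male libraries of Avp neurons, against 71.8 to 127 CPM in the other GABA neurons, so that only female replicate 2 came within the range of the others. Without the cells with striatal markers 6 members were higher and 11 lower in Avp neurons, and 11 in all were called without female replicate 1 or without male replicate 1. The Avp changes of single genes given above include the cells with striatal markers. In Vip neurons (141 cells) 3 of 36 members were higher (4.82% of all genes were) and 3 lower (4.5%), with Cacnb4 at −1.24 ± 0.18 and Cacng3 at −1.21 ± 0.25. The call of Cacng3 in Vip neurons was lost under the wide striatal setting (−0.63). With total counts as the scaling 2 members were higher and 5 lower in Vip neurons, beside 455 higher and 936 lower of 13236 genes.

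Gal neurons (1106 cells), known in this region for roles in sleep and parental behaviour, had 4 of 34 members higher (17.2% of all genes were) and 16 lower (17.3%). Scn9a was at 184 and 146 CPM in female and 141, 104 and 110 CPM in male libraries of Gal neurons, against 58.1 to 80.5 CPM with a median of 66.2 in the other GABA neurons. There was no overlap, and the log2 change was 1.03 ± 0.06 (adjusted p = 5.34e-12, edgeR quasi-likelihood test with Benjamini-Hochberg adjustment). Cacng5 (0.51), Scn7a (0.62) and Cacng4 (0.25) were the other members higher in Gal neurons.

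Scn4b had 7 UMIs in Gal neurons, at 0 and 0.508 CPM in female and 1.83, 0 and 0 CPM in male libraries, against 3.06 to 15.3 CPM in the other GABA neurons (log2 change −3.73 ± 0.37). Cells with striatal markers made up 0.271% (narrow) and 1.54% (wide) of Gal neurons, and without them in either group Scn4b was below the filter. Cacna2d3 was lower in Gal neurons by −1.23 ± 0.10 in all cells, and the change was −0.76 (narrow) and −0.67 (wide) without those cells. Cacng3 gave −1.16 ± 0.09, then −0.72 and −0.54, and −0.74 under stricter gates. Cacna2d1 was lower as well (−0.80). Without those cells 2 members were higher and 16 lower under both settings, and the share of all genes called there is not given.

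**Figure D4:**
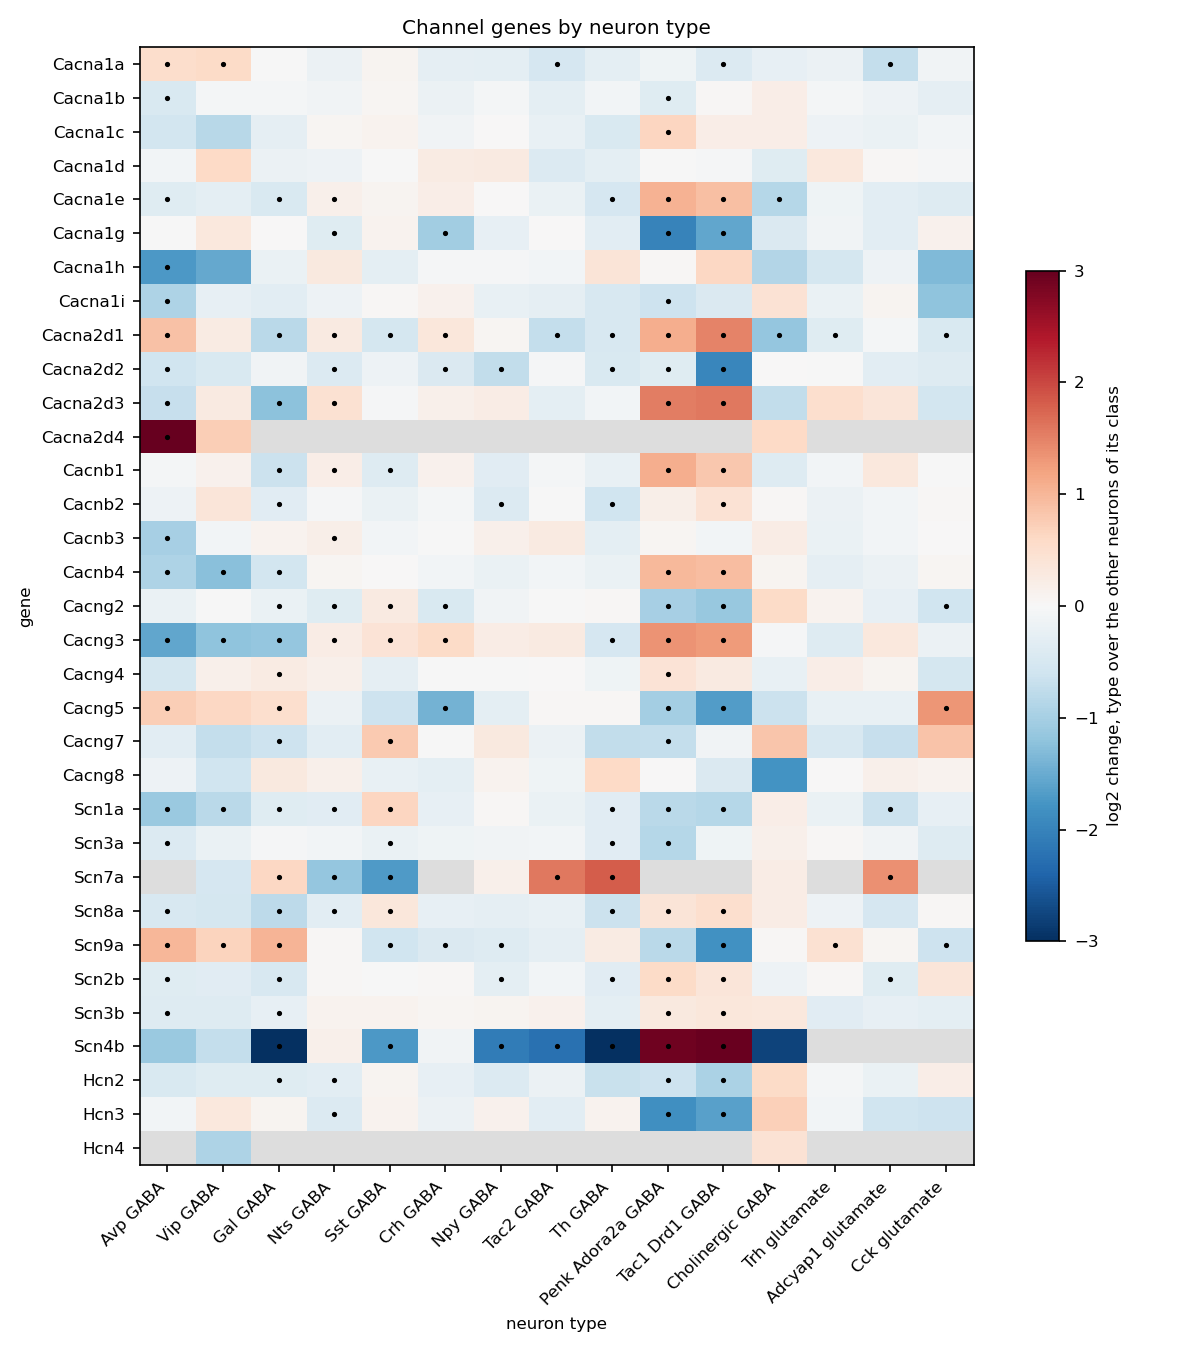
Log2 change of channel genes (rows) in each neuron type over the other neurons of its transmitter class (columns), with colour cut at 3 in both directions, black dots where the adjusted p is under 0.05 and grey where a gene was below the filter. Scn4b is highest in the 2 types with striatal receptors and low in the Gal, Sst, Npy, Tac2 and Th columns. Cacna2d4 is high in the Avp column, where it could pass the filter only through Avp neurons.

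Nts neurons (1553 cells) had 6 of 34 members higher (10.4% of all genes were) and 8 lower (7.43%), Sst neurons (884 cells) 7 of 34 higher (7.31%) and 6 lower (5.81%), and Crh neurons (384 cells) 3 of 33 higher (3.76%) and 5 lower (3.73%). Npy neurons (408 cells) had 0 of 34 higher (4.38%) and 5 lower (3.49%), Tac2 neurons (515 cells) 1 of 34 higher (2.86%) and 4 lower (2.25%), and Th neurons (233 cells) 1 of 34 higher (6.81%) and 11 lower (7.4%). In Npy neurons 13 of 34 members had an unadjusted p under 0.05 in either direction (18.3% of all genes had), and the DESeq2 Wald test called 0 higher and 2 lower. Leaving out 1 library lowered several of these counts. The Th count of 12 was 6 when female replicate 1 was left out and 1 when female replicate 2 was, and the Nts count of 14 was 8 without female replicate 2 and 9 without male replicate 1 or male replicate 2. Crh neurons had 5 called without female replicate 2, and Npy neurons had 3 without female replicate 2 or male replicate 1 and 2 without male replicate 2.

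Scn7a, which encodes the sodium-sensing channel Nax, was called in several of these types, and no such call held in every alternative. It was at 4.54 and 9.44 CPM in female and 20.7, 4.71 and 47.6 CPM in male libraries of Th neurons, against 2.39 to 11.6 CPM with a median of 3.72 in the other GABA neurons. The log2 change was 1.81 ± 0.39 (adjusted p = 0.00113, edgeR quasi-likelihood test with Benjamini-Hochberg adjustment) on 33 UMIs. It was higher in 5 of 5 libraries, although the ranges overlapped, and without female replicate 2 it was below the filter. It was also higher in Tac2 neurons (1.59 ± 0.28, 47 UMIs, higher in 5 of 5 libraries), a call that stricter gates ended. It was lower in Sst neurons (−1.69 ± 0.39, 10 UMIs) and Nts neurons (−1.16 ± 0.28, 26 UMIs). The Sst and Nts calls were both lost in the DESeq2 Wald test, and the Nts call was also lost without female replicate 2.

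Scn4b was lower in Sst (−1.72 ± 0.33, 20 UMIs), Npy (−2.09 ± 0.46, 7 UMIs), Tac2 (−2.24 ± 0.42, 8 UMIs) and Th neurons (−3.37 ± 0.68, 2 UMIs), and it was below the filter in all of them without the cells with striatal markers. The Npy and Tac2 calls were lost under stricter gates. Sst neurons were also higher in Scn1a (0.66) and Cacng7 (0.79), with Scn1a at 167 and 129 CPM in female and 180, 185 and 172 CPM in male libraries of Sst neurons, against 59.6 to 121 CPM in the other GABA neurons. Those groups did not overlap.

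In Crh neurons Cacng5 (−1.42 ± 0.34, 15 UMIs) and Cacna1g (−1.04 ± 0.24, 34 UMIs) were lower, and the Cacng5 call was lost in the DESeq2 Wald test and under stricter gates. The DESeq2 Wald test called 2 members in Th neurons.

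Cells with striatal markers made up 25.4% of Nts, 20.3% of Crh and 15.5% of Tac2 neurons under the narrow setting. Without them 2 members were higher and 7 lower in Nts neurons under the narrow setting, and 2 higher and 6 lower under the wide one. In Npy neurons 3 were higher and 3 lower (narrow) and 2 higher and 5 lower (wide), and in Sst neurons 9 were higher and 6 lower under both settings. Crh neurons had 2 higher and 4 lower (narrow) and 2 higher and 3 lower (wide), Tac2 neurons 2 and 3, then 1 and 2, Th neurons 1 and 7, then 2 and 7, and Vip neurons 4 and 4, then 4 and 3. With total counts as the scaling 3 members were higher and 9 lower in Nts neurons, beside 875 higher and 1228 lower of 12382 genes. Cholinergic neurons (102 cells in all libraries, tested in 3 libraries) had 0 of 36 members higher (2.07% of all genes were) and 2 lower (2.4%), Cacna2d1 at −1.16 ± 0.26 and Cacna1e at −0.86. No member was called in them by the DESeq2 Wald test or without the cells with striatal markers, and 8 of 36 had an unadjusted p under 0.05 in the edgeR test (13.5% of all genes had). The Cacna2d1 change there was −2.46 without female replicate 2 and −0.76 under the wide setting. In cholinergic neurons with total counts as the scaling 1 member was higher and 2 lower, beside 318 higher and 261 lower of 13407 genes.

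Among glutamate types, Cck neurons (184 cells) had 2 of 32 members higher (4.29% of all genes were) and 4 lower (2.54%), Adcyap1 neurons (276 cells) 1 of 33 higher (1.89%) and 4 lower (2.43%), and Trh neurons (427 cells) 1 of 31 higher (3.12%) and 2 lower (3.48%). Cck neurons had 3 called without female replicate 1, female replicate 2 or male replicate 1, and Adcyap1 neurons had 1 when female replicate 1 was left out and 2 when female replicate 2 was.

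Cacng5, an AMPA receptor partner, was higher in Cck neurons (1.33 ± 0.34, 38 UMIs), and its call was lost under stricter gates and without female replicate 2, male replicate 1 or male replicate 2. In Adcyap1 neurons Scn7a was higher (1.37 ± 0.40, 29 UMIs), and its call (adjusted p = 0.0449, edgeR quasi-likelihood test with Benjamini-Hochberg adjustment) was lost in 5 alternatives, among them leaving out female replicate 1, female replicate 2 or male replicate 2, the DESeq2 Wald test and no filter. Scn9a was higher (0.45) and Cacna2d1 was lower (−0.36) in Trh neurons.

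Female and male libraries were compared in all cells, GABA neurons, glutamate neurons and mature oligodendrocytes. With sex as the term and the count filter applied, no channel gene was called in any of them. In all cells 0 of 38 members were called (0.0434% of all genes were), with 3 at an unadjusted p under 0.05 (2.37% of all genes). In GABA neurons 0 of 37 were called (0.076% of all genes), with 3 under 0.05 (6.54%), in glutamate neurons 0 of 33 (0.0577%), with 4 under 0.05 (5.66%) in 2 female and 3 male libraries, and in mature oligodendrocytes 0 of 26 (0.0622%), with 0 under 0.05 (2.83%). The DESeq2 Wald test called 0 in each. The difference in the sex effect between GABA and glutamate neurons was called for 0 of 37 members (0.116% of all genes), with 5 under an unadjusted 0.05 (5.39% of all genes) and 0 by DESeq2. None of the partner genes tested was called.

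The smallest p among neurons was that of Scn4b in GABA neurons, at 6.10, 4.71 and 2.89 CPM in female and 14.0, 8.37 and 10.1 CPM in male libraries. The groups did not overlap, and the log2 change was −1.02 ± 0.23 (adjusted p = 0.363, edgeR quasi-likelihood test with Benjamini-Hochberg adjustment over all genes). With no filter on low counts Scn4b was called, as the 1 member called for sex in GABA neurons in that setting (log2 change −1.02, adjusted p = 0.0404, same edgeR test). Cells with striatal markers made up 16.6%, 11.3% and 17.4% of GABA neurons in female and 19.9%, 17.4% and 19.8% in male libraries under the narrow setting, and without them the change was −0.55. Scn4b was then at 0.945, 1.18 and 0 CPM in female and 2.38, 0.939 and 1.32 CPM in male libraries, with overlapping groups. Under the wide setting Scn4b was at 0.683, 0.798 and 0 CPM in female and 0.993, 0.764 and 0.353 CPM in male libraries. Scn9a gave 0.34 ± 0.13 in GABA neurons, at 91.7, 84.6 and 66.5 CPM in female and 76.0, 63.3 and 67.9 CPM in male libraries, with overlapping groups. Cacna1g gave −0.37 ± 0.14, Cacnb3 −0.24 ± 0.12 and Cacnb4 −0.24 ± 0.12.

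In glutamate neurons small unadjusted p-values were those of Hcn2 (−0.48 ± 0.18), Scn8a (−0.46 ± 0.17), Hcn3 (−0.54 ± 0.22) and Cacna1g (−0.37 ± 0.21), each with an adjusted p of 0.874 or 0.878 (edgeR quasi-likelihood test with Benjamini-Hochberg adjustment). Hcn2 was at 17.8 and 25.2 CPM in female and 31.7, 34.3 and 27.1 CPM in male libraries of glutamate neurons, groups that did not overlap. The sex difference in GABA minus that in glutamate neurons was 0.40 ± 0.13 for Cacna1a, 0.47 ± 0.19 for Hcn3, 0.22 ± 0.09 for Cacna2d2, 0.34 ± 0.15 for Hcn2 and 0.20 ± 0.09 for Scn9a, with adjusted p-values of 0.415 to 0.896 (edgeR quasi-likelihood test with Benjamini-Hochberg adjustment).

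In all cells Scn4b gave −0.86 ± 0.31, Scn11a 1.14 ± 0.48, Cacna2d4 −0.52 ± 0.22, Cacna1s 0.73 ± 0.43 and Cacnb4 −0.29 ± 0.23. In mature oligodendrocytes Scn8a gave −0.69 ± 0.31, Cacna2d4 −0.48 ± 0.28, Cacnb3 −0.63 ± 0.39 and Cacna1c −0.63 ± 0.46, none with a call.

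**Figure D5:**
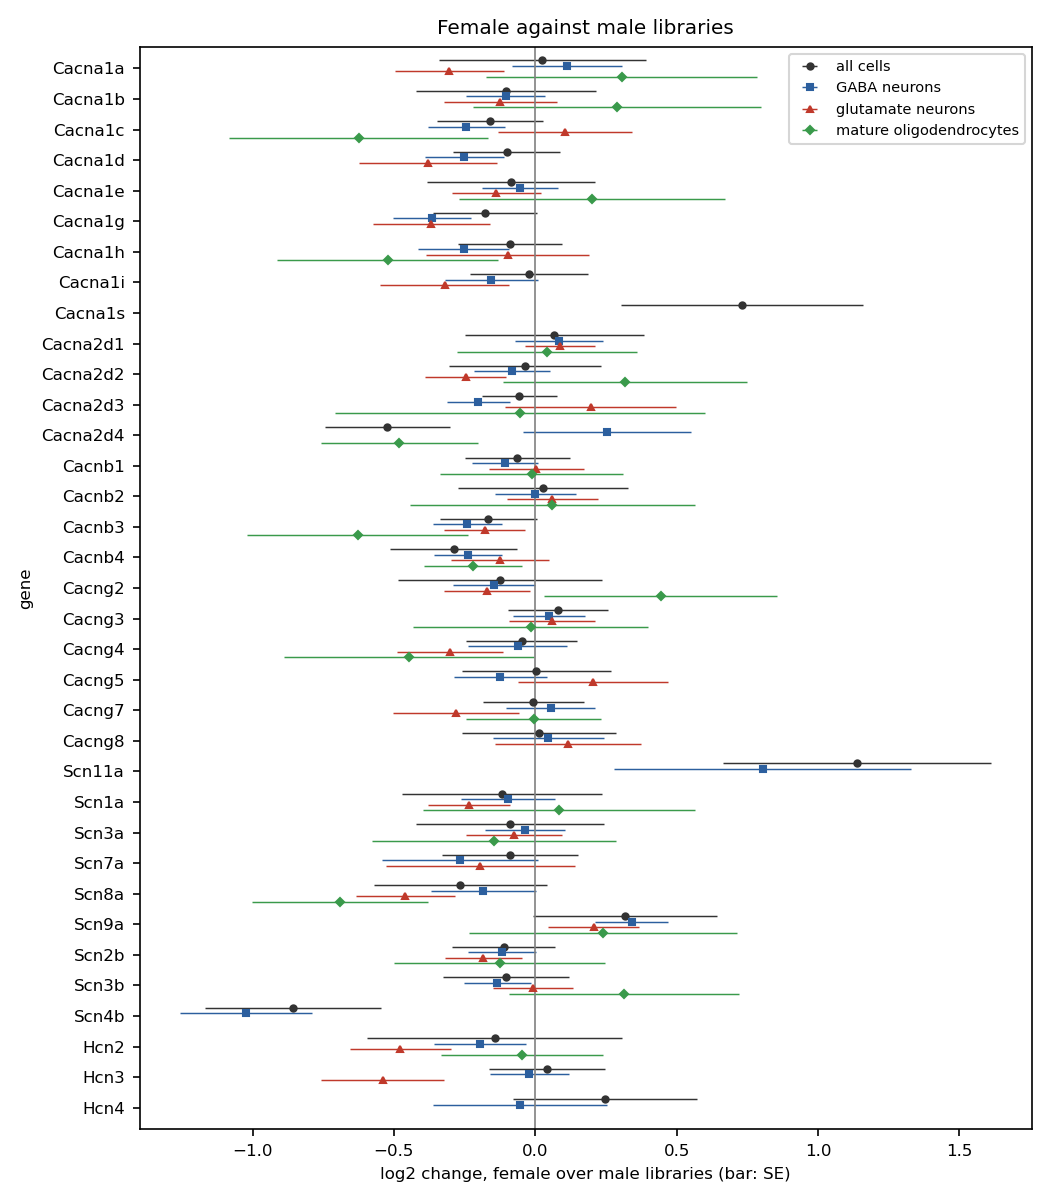
Log2 change of tested channel genes in female over male libraries, with bars for the SE, in all cells, GABA neurons, glutamate neurons and mature oligodendrocytes. No point has an adjusted p under 0.05 with the count filter applied, and Scn4b in GABA neurons lies at −1.02.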

How the data were processed

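The authors deposited 1 table of raw UMI counts per gene and cell barcode. Per the submitters' processing notes, it came from Cell Ranger 2.0.0 and the mm10 genome.

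Cells with at least 500 genes and at most 20% mitochondrial UMIs were kept, 4630, 9749 and 410 in female libraries and 7264, 6809 and 1962 in male libraries. Cell classes were set by marker UMIs per 10000 and a minimum of markers detected, and 1007 cells met several classes and 1077 none. Scrublet marked 1002 cells (3.25%) as doublets, which stayed in the main results and were left out in an alternative. Counts were summed per class and library where each side had at least 10 cells, scaled by TMM, filtered with filterByExpr at a minimum count of 10 and tested with edgeR 4.0.16 (glmQLFTest, R 4.3.3, limma 3.58.1), with Benjamini-Hochberg adjustment over all genes and the library as a block between classes. DESeq2 1.42.0 was an alternative. The edgeR script was tested on simulated data.

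Other alternatives were DESeq2 size factors, no filter, stricter gates (thresholds doubled), each library left out and, for sex, the replicate number as a block. Total-count scaling and the removal of cells with striatal markers (at least 30 UMIs per 10000 of 6 markers with 3 detected, or at least 10 with 2 detected) were chosen after seeing the data. Named genes were called members with a log2 change of at least 1, up to 8 per direction, members called against the majority, and the 5 smallest p-values for sex. The members and lists were chosen with earlier results of these data known. A library is a pool of mice, so p-values for sex measure the spread between pools. Between classes or types, where the library is a block, they measure the spread over pools of the difference within a pool. Symbols were matched as deposited, and 56 symbols occur on more than 1 row. Results for some of the genes are not reported here, while counts of members include them.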

Additional observations from a re-analysis of the deposited data

How the results depend on the processing

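Of the single-gene results under each alternative, 1324 kept their direction and their side of the threshold, 41 lost a call, 7 gained one and 1 reversed, that of Cacng7 in neurons against mature oligodendrocytes (0.39 with total counts as the scaling). With no filter on low counts 1 member was called for sex in GABA neurons, 11 in astrocytes, 12 in microglia and 6 in endothelial cells. Stricter gates left 10 calls in GABA against glutamate neurons, 9 in Nts, 4 in Crh, 2 in Npy, 1 in Tac2, 8 in Penk Adora2a and 1 in Cck neurons. The DESeq2 Wald test called 6 in Nts, 3 in Crh, 2 in Npy, 3 in Tac2, 2 in Th, 0 in cholinergic and 1 in Adcyap1 neurons. Leaving out cells with striatal markers gave 9 (narrow) and 8 (wide) in Nts neurons, 0 and 0 in cholinergic neurons, and under the wide setting 5 in Crh and 3 in Tac2 neurons. Leaving out doublets gave 4 in cholinergic neurons. Counts of members in this section come without the share of all genes called in the same setting. The cause of these shifts was not tested.

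Leaving out 1 library at a time gave 2 to 5 calls in astrocytes and 3 to 6 in microglia, the highest of both without female replicate 3. It gave 11 to 20 in Avp, 8 to 13 in Nts, 5 to 8 in Crh, 2 to 5 in Npy, 1 to 13 in Th, 1 to 2 in cholinergic, 1 to 6 in Adcyap1 and 3 to 7 in Cck neurons. The Th count was 6 without female replicate 1 and 1 without female replicate 2. The sex comparisons gave 0 calls in each.

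With the replicate block 5 members were called for sex in GABA neurons, 2 in glutamate neurons and 0 in all cells and in mature oligodendrocytes. The share of all genes called with that block is not given here, so these counts are not read as a result about the members. Libraries with the same number had correlated deviations of 0.358, 0.0893 and 0.267 in all cells, and 2 of 3 female libraries correlated best with their own number, so the numbers were not taken to pair the libraries. Stricter gates gave no value for Avp, Vip, Th, cholinergic, Adcyap1 and Tac1 Drd1 neurons, which had too few libraries. Against mature oligodendrocytes 2 to 19 members passed the filter in glia and vessel cells, and the others were below it there.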
